A study of Mus musculus with 16 samples.

Results

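The enzymes that build fatty acids from acetyl-CoA, lengthen them and place double bonds in them are described here. Their RNA was measured on 16 arrays of mouse bone marrow stromal cells cultured under osteogenic conditions. The members are the 10 genes Fasn, Acaca, Acly, Scd1, Scd2, Elovl5, Elovl6, Srebf1, Fads1 and Fads2. Every probe whose platform symbol is a current or former name of one of them was taken, which gave 11 probes of 25697 on the array and 10 genes of 16593 named. Srebf1 had 2 probes and each other gene 1. The cells of all 16 arrays came from animals of mixed CD1/C57BL6 background and were harvested after 7 days. The genotype was Hdac3 CKO on 8 arrays and wild type on 8. Hdac3 CKO is a conditional knockout in which the series title names Osterix1-Cre as the driver. The Osterix promoter is active in osteoblast lineage cells, and which cells of these cultures lost Hdac3 is not known here. The labels used here give no age, no number of animals and no statement on pooling. They do not state that each array is a separate culture, so n counts arrays, also where cultures are named. The spread that p-values rest on is that between these 16 arrays and may be technical.

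Arrays are named by the number in their title, such as KO15 or WT13. The numbers form 5 groups of consecutive or nearly consecutive values, called runs here and separated by gaps over 4, and each run holds as many Hdac3 CKO as wild type arrays. Run 1 holds KO7 and WT5, run 2 holds KO15, KO16, WT13 and WT14, and run 3 holds KO23, KO24, WT21 and WT22. Run 4 holds KO32 and WT30, and run 5 holds KO46, KO47, WT42 and WT44. What a title number marks is not given in the labels. Hdac3 averaged log2 10.25 ± 0.077 in Hdac3 CKO and 10.42 ± 0.085 in wild type cultures (SD, n = 8 each), 0.891-fold. This difference did not pass (limma adjusted p = 0.162 with the runs as a fixed block and 0.932 without). Whether the Hdac3 probe lies in the deleted part is not known here. WT13 and WT14 stand apart. The Y-linked gene Eif2s3y was at log2 5.89 and 6.17 on them and between 8.28 and 9.89 on the other 14 arrays. The X-inactivation RNA Xist was at 7.82 and 7.95 on them and at most 7.63 on the other 14 arrays. WT13 and WT14 are all the wild type arrays of run 2, so results that rest on run 2 are also given without it. In run 2 genotype therefore cannot be told apart from the difference in Eif2s3y and Xist, and the sex of the animals was not tested. Of 10 measured osteoblast markers, 8 were above the median probe of the array and Dmp1 and Phex, markers of late osteoblasts and osteocytes, were not.

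Acly cleaves citrate into acetyl-CoA, Acaca carboxylates it to malonyl-CoA, and Fasn joins these units into palmitate. Elovl6 and Elovl5 are elongases, Elovl6 for saturated and monounsaturated chains and Elovl5 for polyunsaturated ones. Scd1 and Scd2 are stearoyl-CoA desaturases, which place the first double bond in a saturated chain, whereas Fads2 and Fads1 desaturate the essential polyunsaturated fatty acids. Srebf1 encodes SREBP-1, a membrane-bound transcription factor that switches on most of these genes, and the liver X receptors raise Srebf1 and Scd1 transcription. Scd1 is among the abundant transcripts of fat cells, a cell type that marrow stromal cells can also form.

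Both pairs of desaturase genes lie on chromosome 19 (RefSeq, GRCm38.p6). Scd1, read by probe ILMN_1237375, spans chr19:44394450-44407709, and Scd2, read by ILMN_2919259, spans chr19:44293676-44306864. Fads2 (ILMN_2713071) lies at chr19:10062765-10101503 and Fads1 (ILMN_2607786) at chr19:10182877-10196874. The elongase gene Elovl6 (ILMN_2614752) is at chr3:129532386-129638495 and Elovl5 (ILMN_2652757) at chr9:77917365-77984519. Fasn, Acaca, Acly and Srebf1 are all on chromosome 11. The exon that each probe reads was not determined here.

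Promoters of 7 member genes were matched in RefSeq (GRCm38.p6). Each window runs from 250 bases before to 50 bases after a start listed for the gene, and Srebf1 had more than 1 window. The Acaca window, chr11:84195188-84195487 (+), lies inside the gene, which starts at 84129635. The windows of Fasn and Srebf1 also lie inside their genes. No promoters of Scd1, Scd2 and Fads1 were used here. The sequences of Elovl6 and Fads2, the members lower in Hdac3 CKO cultures in 4 of 5 runs, are shown beside that of Elovl5, whose genotype difference lay near 0. They are read 5′ to 3′ on the gene's strand, from chr3:129532136-129532435 (+) for Elovl6, chr19:10101454-10101753 (-) for Fads2 and chr9:77917115-77917414 (+) for Elovl5. Capitals mark CCAAT, the core bound by NF-Y, and the E-box CACGTG, on either strand, so that CCAAT also appears as ATTGG.
Elovl6: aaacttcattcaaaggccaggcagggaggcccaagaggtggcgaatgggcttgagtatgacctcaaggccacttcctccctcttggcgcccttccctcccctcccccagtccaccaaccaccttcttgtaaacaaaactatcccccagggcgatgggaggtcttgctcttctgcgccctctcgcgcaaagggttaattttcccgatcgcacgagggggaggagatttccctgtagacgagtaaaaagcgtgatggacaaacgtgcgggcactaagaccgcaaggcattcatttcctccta
Fads2: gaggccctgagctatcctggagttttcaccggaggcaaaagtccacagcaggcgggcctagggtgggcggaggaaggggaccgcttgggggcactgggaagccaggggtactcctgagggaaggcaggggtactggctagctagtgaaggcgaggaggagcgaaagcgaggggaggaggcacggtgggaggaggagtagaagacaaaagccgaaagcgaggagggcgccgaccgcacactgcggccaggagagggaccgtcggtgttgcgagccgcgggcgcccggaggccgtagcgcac
Elovl5: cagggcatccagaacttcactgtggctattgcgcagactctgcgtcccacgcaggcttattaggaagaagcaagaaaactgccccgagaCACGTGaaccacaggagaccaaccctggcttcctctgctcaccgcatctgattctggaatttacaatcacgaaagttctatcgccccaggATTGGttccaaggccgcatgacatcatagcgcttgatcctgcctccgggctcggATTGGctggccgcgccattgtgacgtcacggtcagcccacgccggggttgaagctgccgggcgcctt
Elovl5 held 2 CCAAT boxes and 1 E-box, and neither motif occurs in the windows of Elovl6 or Fads2. Of the 9 member windows 5 held a CCAAT box and 1 an E-box. The window of Acaca, which was higher in Hdac3 CKO in 4 of 5 runs, also held neither, but it lies inside the gene. A CCAAT occurs in 37.4% and a CACGTG in 7.15% of the 32851 promoters of all genes. The sterol regulatory element TCACNCCAC, searched on both strands, is in 1.24% of all promoters and in 0 of the 9 member windows. No motif overlapped another in these 3 windows, and a match or its lack in this window describes only these letters.

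Scd1, higher in Hdac3 CKO cultures, was the one member that passed, and only where the runs entered as a fixed block, not as a random one. When limma took the runs as a fixed block, 1 of the 11 member probes passed an adjusted p under 0.05 (Benjamini-Hochberg over all 25697 probes), and 0.218% of all probes did. Without a block 0 of 11 passed, as did 0% of all probes. At an unadjusted p under 0.05 no member probe passed without a block, in limma or in the rank sum test. Of all probes 4.74% passed in limma and 1209 of 25697 in the rank sum test. With the block 3 member probes passed in limma (Scd1, Fads2 and Elovl6), where 11.2% of all probes did. Over the 10 genes 7 had a difference above 0 and 3 below 0, with a median of 0.011 on the log2 scale, and 48.7% of all probes had one above 0, with a median of -0.0023. The ranges of the 2 genotypes over all arrays overlapped for each of the 10 genes.

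Scd1 intensity was higher in every Hdac3 CKO array than in every wild type array of the same run. In run 1 the log2 intensity was 10.61 in KO7, against 10.41 in WT5. In run 2 it was 13.49 in KO15 and 13.22 in KO16, against 11.98 in WT13 and 11.89 in WT14. Run 2 thus held the brightest arrays of each genotype and the widest gap between them. In run 3 it was 10.28 in KO23 and 10.52 in KO24, against 9.90 in WT21 and 10.05 in WT22. In run 4 it was 10.63 in KO32, against 9.97 in WT30. In run 5 it was 9.89 in KO46 and 10.24 in KO47, against 9.46 in WT42 and 9.63 in WT44. Of all probes 0.463% had every Hdac3 CKO array above every wild type array of its run in all 5 runs, and Scd1 was the 1 member among them, with 0 members in the opposite case (0.342% of all probes). By run means alone 1 member, Scd1, was higher in all 5 runs and 0 were lower, where 4.32% and 5.19% of all probes were. Runs 1 and 4 hold only 1 array of each genotype, so the separation there is between single arrays.

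The Scd1 difference was 1.62-fold (log2 0.70, SE 0.12 with the runs as a block, 95% interval 0.43 to 0.96, limma adjusted p = 0.0310). Mean log2 intensity was 11.11 ± 1.41 in Hdac3 CKO and 10.41 ± 0.98 in wild type cultures (SD, n = 8 each). Both SDs exceed the difference, because 87.4% of the variance of Scd1 over the 16 arrays lay between runs, 8.63% between genotypes and 0.703% between arrays of the same run and genotype. Without a block the interval was -0.46 to 1.86 and the limma adjusted p 0.932. The exact permutation test (two-sided) had p = 0.277 when genotypes were exchanged over all 16 arrays (12870 arrangements) and p = 0.00231 when they were exchanged only within runs (864 arrangements), which is the smallest p the 864 can give. By run the fold was 1.14 in run 1, 2.67 in run 2, 1.34 in run 3, 1.58 in run 4 and 1.43 in run 5. The call was lost without WT13, WT14, KO15, KO16, WT21, KO24, WT42 or KO47, taken singly, with differences of 0.61 to 0.71 and limma adjusted p of 0.0637 to 0.0981, and without run 2 (difference 0.46, adjusted p = 0.164), run 3 (0.79, adjusted p = 0.0962) or run 5 (0.76, adjusted p = 0.0616). It was also lost with the runs as a random block (adjusted p = 0.660) and with 5 pairs of run means (difference 0.64, adjusted p = 0.300).

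**Figure D1:**
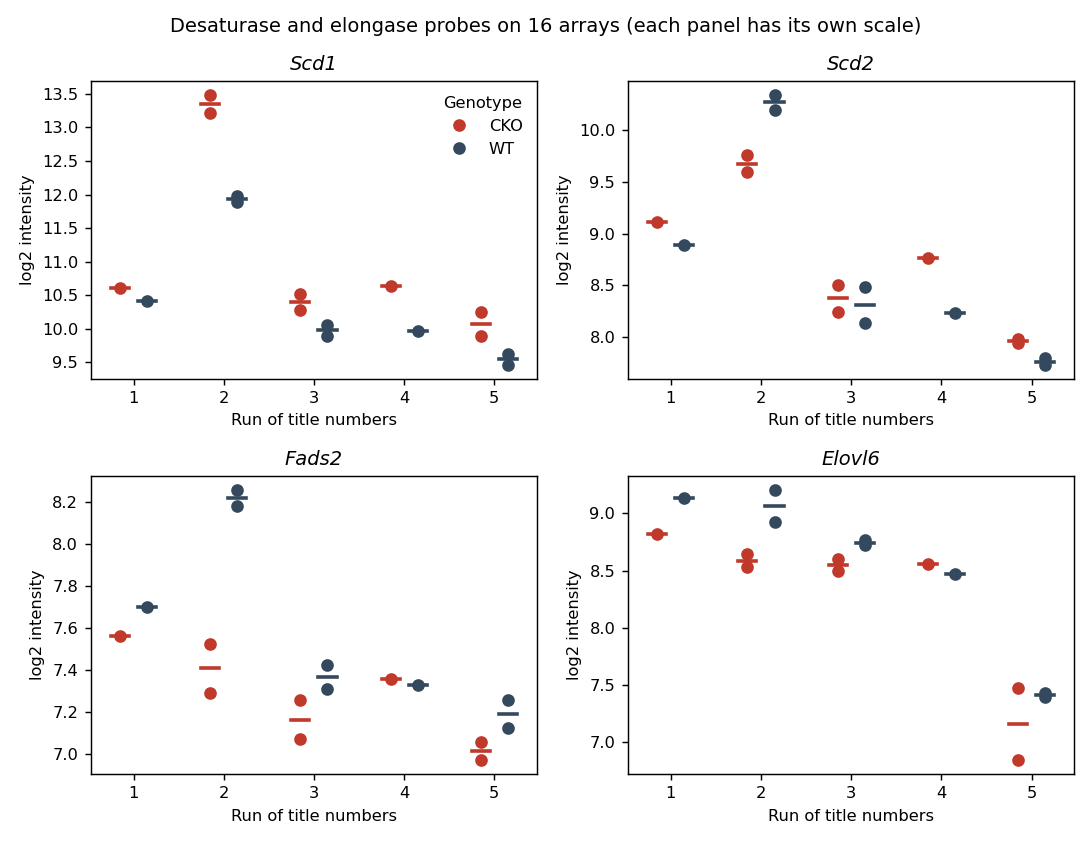
Log2 intensity of Scd1, Scd2, Fads2 and Elovl6 on each array (y axes, 1 scale per panel) against the run of title numbers (x axis), with Hdac3 CKO in red to the left of wild type in dark blue, points for arrays and bars for means. Scd1 is higher in Hdac3 CKO in all 5 runs, whereas Scd2 and Fads2 are lower in Hdac3 CKO in run 2, the run in which both are brightest.

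Scd2, the neighbour of Scd1 on chromosome 19, did not pass and had no single direction over the runs. In run 2 its log2 intensity was 9.76 in KO15 and 9.59 in KO16, against 10.19 in WT13 and 10.34 in WT14. In run 4 it was 8.76 in KO32, against 8.23 in WT30, and in run 1 it was 9.11 in KO7, against 8.89 in WT5. Scd2 was therefore 0.662-fold as high in Hdac3 CKO in run 2 but 1.44-fold in run 4 and 1.16-fold in run 1. In run 5 it was 7.94 in KO46 and 7.98 in KO47, against 7.73 in WT42 and 7.80 in WT44, and in run 3 the genotypes overlapped. Its mean was 8.74 ± 0.70 in Hdac3 CKO and 8.73 ± 1.02 in wild type cultures (SD, n = 8 each). The difference was 0.010 (SE 0.11 with the block, 95% interval -0.22 to 0.24, limma adjusted p = 0.987), and without run 2 it was 0.21 (adjusted p = 0.809). The other members of this small family, Scd3 and Scd4, lay below the median probe and had differences of -0.044 and 0.052 (adjusted p = 0.799 and 0.794 with the block).

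The polyunsaturated fatty acid desaturase genes Fads1 and Fads2 did not pass either. Fads2, the delta-6 desaturase, was at log2 7.29 in KO15 and 7.52 in KO16, against 8.18 in WT13 and 8.26 in WT14, its highest values on any array. Every Hdac3 CKO array lay below every wild type array of its run in runs 1, 2, 3 and 5, and in run 4 KO32 had 7.36 and WT30 had 7.33. The mean was 7.26 ± 0.22 in Hdac3 CKO and 7.57 ± 0.43 in wild type cultures (SD, n = 8 each). The difference was -0.31 (0.806-fold, SE 0.088 with the block, limma adjusted p = 0.172), and the exact permutation p was 0.0946 over all arrangements and 0.00463 within runs, unadjusted. Run 2 had a difference of -0.81 and the others -0.14, -0.21, 0.031 and -0.18, and without run 2 the mean difference was -0.15 (adjusted p = 0.814). Fads1, the delta-5 desaturase, ranged from log2 12.49 to 13.16 in Hdac3 CKO, with a median of 12.89, and from 12.24 to 13.45 in wild type, with a median of 12.86. Its difference was -0.27 in run 2, where KO15 and KO16 lay below WT13 and WT14, and between 0.030 and 0.19 in the other runs. Over all runs it was 0.013 (95% interval -0.14 to 0.16 with the block, adjusted p = 0.973).

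Of the elongases, Elovl6 had the lower values in Hdac3 CKO cultures and Elovl5 differed by less than its spread. Elovl6, which carries palmitate to stearate, was 8.64 in KO15 and 8.53 in KO16, against 8.93 in WT13 and 9.21 in WT14. In run 1 it was 8.82 in KO7, against 9.13 in WT5, and in run 3 8.60 in KO23 and 8.49 in KO24, against 8.73 in WT21 and 8.76 in WT22. These 3 runs showed no overlap of the genotypes. Run 4 went the other way, with 8.56 in KO32 and 8.47 in WT30. In run 5, the run in which Elovl6 was dimmest, it was 7.47 in KO46 and 6.84 in KO47, against 7.42 in WT42 and 7.39 in WT44. The mean was 8.24 ± 0.70 in Hdac3 CKO and 8.51 ± 0.72 in wild type cultures (SD, n = 8 each). The difference was -0.26 (0.834-fold, SE 0.084 with the block, limma adjusted p = 0.231), with an unadjusted exact permutation p of 0.486 over all arrangements and 0.0208 within runs. Without run 2 it was -0.19 (adjusted p = 0.821). Elovl5 ranged from 11.47 to 11.93 in Hdac3 CKO (median 11.66) and from 11.49 to 11.90 in wild type (median 11.70), with a difference of -0.0074 (95% interval -0.10 to 0.090 with the block, adjusted p = 0.977).

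The genes at the start of the pathway showed no change that passed. Acaca, the acetyl-CoA carboxylase, averaged 10.56 ± 0.45 in Hdac3 CKO and 10.43 ± 0.37 in wild type cultures (SD, n = 8 each), a difference of 0.13 (SE 0.073 with the block, limma adjusted p = 0.538). It was higher in 4 of 5 runs, by 0.19 to 0.29, and lower in run 3, by a difference of -0.18. Acly ranged from 11.38 to 11.86 in Hdac3 CKO (median 11.58) and from 11.14 to 11.91 in wild type (median 11.64). Its genotypes overlapped in no run, which is so by design in runs 1 and 4, with 1 array of each genotype. The same held for Scd1, Fads2 and the brighter Srebf1 probe. The share of all probes was not counted, so this does not set these probes apart. The Acly direction was not constant. Hdac3 CKO lay below wild type in runs 1, 2 and 3, by differences of -0.020 to -0.079, and above it in runs 4 and 5, by 0.18 and 0.30. The mean Acly difference was 0.057 (adjusted p = 0.783 with the block). Fasn, the synthase itself, had a mean of 6.40 ± 0.15 in Hdac3 CKO and 6.39 ± 0.16 in wild type cultures (SD, n = 8 each), below the median probe at 6.60, where background in the deposited values compresses fold changes. Its difference was 0.011 (95% interval -0.13 to 0.15 with the block).

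Of the Srebf1 probes the brighter lay just above the median probe and the other below it, and neither gave a passing difference. The brighter probe averaged 6.84 ± 0.24 in Hdac3 CKO and 6.83 ± 0.18 in wild type cultures, and the other 6.15 ± 0.11 in Hdac3 CKO and 6.14 ± 0.078 in wild type cultures (SD, n = 8 each). The brighter probe was higher in Hdac3 CKO in run 2, at 7.28 in KO15 and 7.15 in KO16 against 7.01 in WT13 and 7.07 in WT14. It was also higher in run 5, by 0.18, and lower in runs 1, 3 and 4, with differences of -0.11, -0.22 and -0.051. The mean difference was 0.012 (95% interval -0.11 to 0.14, limma adjusted p = 0.969 with the block), and that of the dimmer probe 0.0058 (adjusted p = 0.985).

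**Figure D2:**
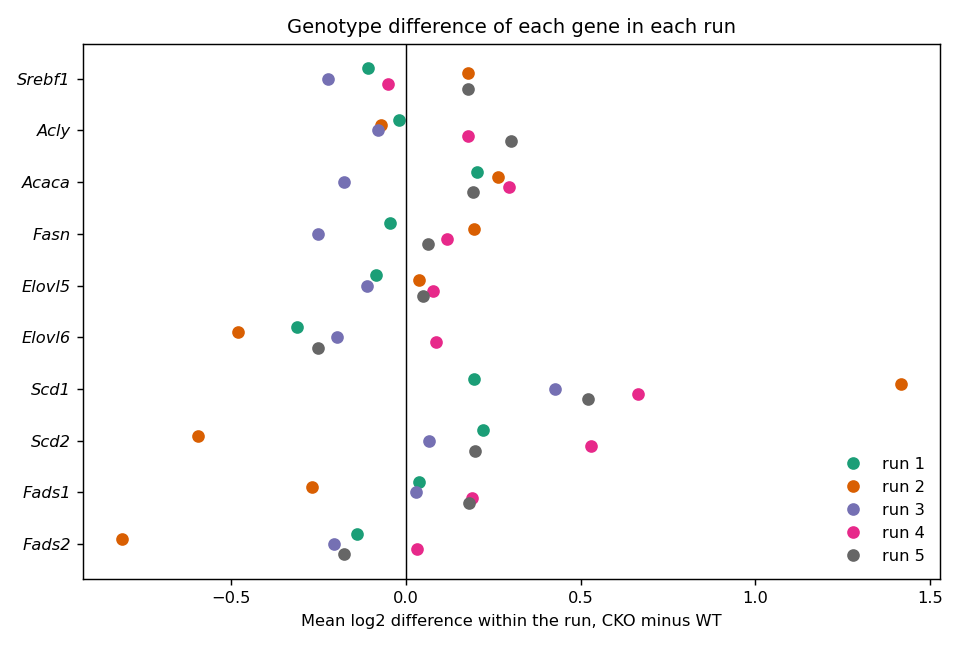
Mean log2 difference (Hdac3 CKO minus wild type, x axis) of each member gene (y axis) in each of the 5 runs (colours), with the brighter probe for Srebf1. Scd1 lies to the right of 0 in all 5 runs, Fads2 and Elovl6 lie to the left in 4, and the widest gap between Scd1 and Scd2 is that of run 2.

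**Figure D3:**
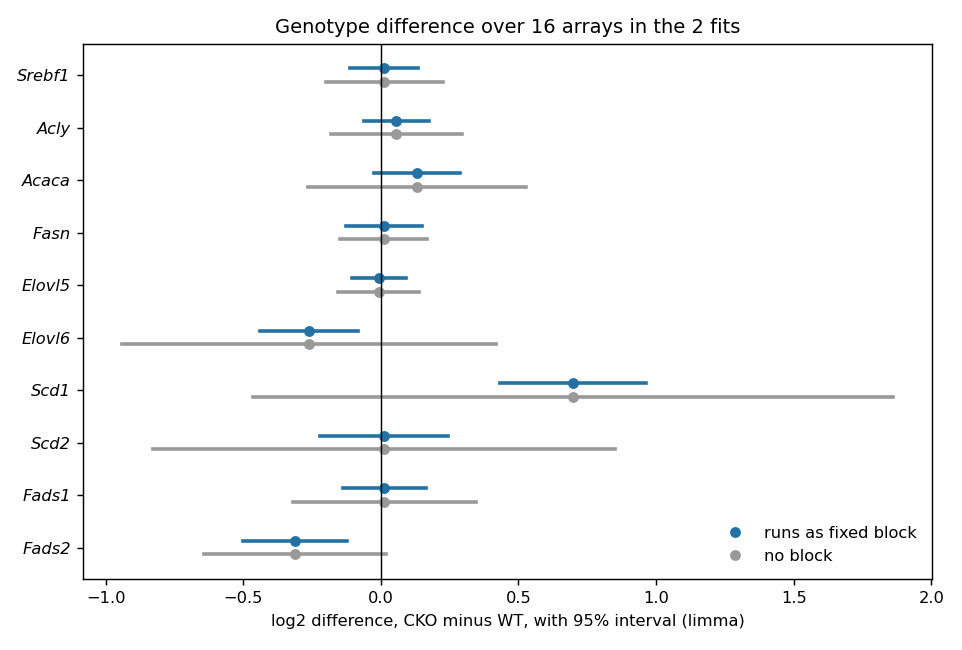
Log2 difference (Hdac3 CKO minus wild type, x axis) of each member gene with its 95% interval in limma, with the 5 runs as a fixed block (blue, upper) and without a block (grey, lower), n = 8 arrays per genotype. The difference is the same in both fits, while the interval of Scd1 is 0.43 to 0.96 with the block and -0.46 to 1.86 without it.

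The difference between Scd1 and the other desaturases and elongases was tested on the log2 ratio of the 2 probes within each array, in 5 comparisons. The genotype difference of Scd1 exceeded that of Scd2 by 0.69 (95% interval 0.13 to 1.25), of Fads1 by 0.69 (0.26 to 1.11), of Fads2 by 1.01 (0.47 to 1.55), of Elovl5 by 0.71 (0.36 to 1.05) and of Elovl6 by 0.96 (0.48 to 1.44), with the runs as a block. The ratio was higher in Hdac3 CKO in 5 of 5 runs against Fads1, Fads2, Elovl5 and Elovl6 and in 4 of 5 against Scd2. Within runs the exact permutation test (two-sided, Benjamini-Hochberg over the 5) gave adjusted p = 0.00463 against Scd2, the same as unadjusted, and adjusted p = 0.00289 against each of the others (0.00231 unadjusted, the smallest possible). Over all arrangements the adjusted exact p was 0.0381 against Scd2 (0.00761 unadjusted), 0.131 against Fads2 (0.0525), 0.150 against Elovl6 (0.0898), and 0.230 against Fads1 (0.219) and Elovl5 (0.230). The Scd1 to Scd2 ratio differed by 2.01 in run 2, and by -0.026, 0.36, 0.14 and 0.32 in runs 1, 3, 4 and 5. Without run 2 the excess over Scd2 was 0.25, with an adjusted exact p of 0.0278 within runs and 0.0606 over all arrangements, and over the other 4 genes it was 0.35 to 0.65, with an adjusted p of 0.0174 within runs. Without single arrays the comparison with Scd2 lost its call over all arrangements for 10 of 16 arrays (WT5, WT13, WT14, KO15, KO16, WT21, WT22, WT30, WT42 and WT44, adjusted exact p up to 0.147). The labels do not state that arrays of the same run and genotype were separate cultures, and these permutations treat them so.

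**Figure D4:**
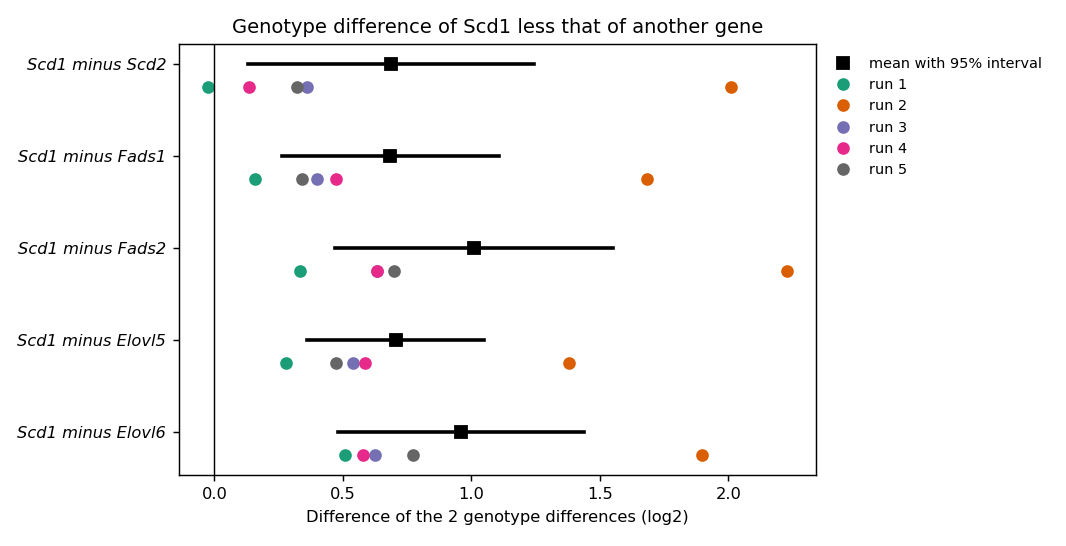
Genotype difference (Hdac3 CKO minus wild type) of Scd1 less that of 5 other genes (y axis), on the log2 scale (x axis), with squares and lines for the mean and 95% interval over 16 arrays with the runs as a block and coloured points for the 5 runs. Each mean lies above 0, and run 2 gives the largest value in each comparison, 2.01 against Scd2.

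Each member varied more between runs than between genotypes. The share of variance between runs was 93.6% for Scd2, 91.2% for Elovl6, 86.3% for Acaca, 84.9% for Fads1, 83.8% for Acly, 79.5% for Elovl5, 78.3% and 10.2% for the brighter and dimmer Srebf1 probes, 60.1% for Fads2 and 43.97% for Fasn, where the median over all probes above the median probe was 50.4%. Genotype took 19.2% of the variance of Fads2, 3.75% of that of Elovl6 and 0.0041% of that of Scd2. Of the 10 genes, by their brightest probes, 8 had their highest run mean in run 2, against 16.9% of probes above the median probe. All 10 had their lowest in run 5, for which the share of all probes was not counted. The dimmer Srebf1 probe instead had its highest run mean, 6.19, in run 5. These run means pool the genotypes, and Scd1 had one of 12.65 in run 2 and 9.81 in run 5. Over the 16 arrays Scd1 spanned 4.03 log2 units, more than 99.9% of all probes, Scd2 2.62 and Elovl6 2.37.

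The genes whose pattern was most like that of Scd1 were taken as the 5 named genes above the median probe with the smallest root mean square difference from it over the 16 arrays, each profile centred on its own mean. They were Ffar2, a receptor for short-chain fatty acids, the glutamate transporter gene Slc1a3, the hyaluronan receptor gene Lyve1, the interferon-induced gene Ifit3 and the monooxygenase gene Fmo1, at 0.42, 0.46, 0.49, 0.52 and 0.53 log2 units. The closest member was Scd2 at 0.66, and the others lay between 0.85 (Acaca) and 1.14 (Fasn). Their differences between Hdac3 CKO and wild type, given as a description because the profile that chose them holds the genotype gap of Scd1, were 0.74 for Ffar2, 0.78 for Slc1a3, 0.79 for Lyve1, 0.13 for Ifit3 and 0.70 for Fmo1.

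Other genes of the pathway, listed by role rather than by how they moved, showed 1 passing change. Of 54 listed genes 46 were measured, 28 of them higher and 18 lower in Hdac3 CKO, with a median difference of 0.022. Of all probes 48.7% were higher. With the block 1 of the 46 passed as higher and 0 as lower, where 0.171% of all probes passed as higher and 0.0467% as lower. Without the block 0 of 46 passed, as did 0% of all probes. At an unadjusted p under 0.05 without the block, 1 of 46 passed in limma, where 4.74% of all probes did. In the rank sum test 1 of 46 did, where 1209 of 25697 probes did. The gene called with the block was Nr1h3, which encodes the liver X receptor alpha. Its log2 intensity ranged from 7.54 to 9.22 in Hdac3 CKO (median 8.30) and from 7.30 to 8.79 in wild type cultures (median 7.94), so the genotypes overlapped over all arrays, but within each of the 5 runs every Hdac3 CKO array was above every wild type array. The difference was 1.35-fold (log2 0.43, SE 0.074, 95% interval 0.27 to 0.59, limma adjusted p = 0.0272 with the block and 0.932 without it). By run it was 0.11, 0.31, 0.34, 0.50 and 0.78, so that run 5, not run 2, had the widest gap. The exact permutation p was 0.138 over all arrangements and 0.00231 within runs. A second, dimmer Nr1h3 probe had a difference of 0.10 (adjusted p = 0.482) and was also higher in 5 of 5 runs. The call was lost without WT13, WT14, KO16, WT21 or WT42, taken singly (adjusted p up to 0.0919), and without run 2 (difference 0.47, adjusted p = 0.190), run 3 (0.46, adjusted p = 0.0975) or run 5 (0.32, adjusted p = 0.0909). It was also lost with the runs as a random block (adjusted p = 0.616) and with 5 pairs of run means (0.299).

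Genes that process SREBP or act beside it did not pass, among them Srebf2 (difference 0.0077), Insig1, which retains SREBP in the endoplasmic reticulum (0.026), Mbtps2, the site-2 protease (-0.088, adjusted p = 0.667 with the block) and Mlxipl, the carbohydrate response factor (0.13, adjusted p = 0.720). In the malonyl-CoA and chain assembly list, Mlycd, which removes malonyl-CoA, had a difference of 0.18 (SE 0.067, limma adjusted p = 0.306) and Thrsp, a lipogenic protein of fat and liver, one of 0.35 (SE 0.14, adjusted p = 0.337). Among the other desaturases and their electron donors, Cyb5a, the cytochrome b5 that feeds electrons to Scd enzymes, had a difference of 0.19 (SE 0.087, adjusted p = 0.422), and the sphingolipid desaturase gene Degs1 one of 0.082 (adjusted p = 0.608). Of the 11 other elongation genes, 4 were higher and 7 lower with a median of -0.018, and those with the smallest p were Elovl4 (-0.15, adjusted p = 0.479) and the dehydratase gene Hacd1 (-0.24, adjusted p = 0.501). Of the 6 measured genes of carbon and NADPH supply, the acetyl-CoA synthetase gene Acss2 differed by 0.14 (adjusted p = 0.456) and the pyruvate dehydrogenase subunit gene Pdhb by -0.092 (adjusted p = 0.803).

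Some fat cell markers rose beside Scd1 in the Hdac3 CKO cultures, and no macrophage marker passed. Of 11 measured adipocyte markers 9 were higher, with a median difference of 0.38. With the block 3 passed as higher (0.171% of all probes did), and none passed without it. On average 6 were above the median probe, whereas Plin1, Cidec, Fabp4, Lipe and Retn were at or below it. The summed intensity of all 11 was 3146 to 15221 in Hdac3 CKO and 2399 to 6983 in wild type cultures. The fat cell hormone gene Adipoq differed by 0.15, 1.50, 1.18, 1.41 and 1.31 in runs 1 to 5, where Scd1 differed by 0.19, 1.42, 0.43, 0.66 and 0.52. All 12 measured macrophage markers were above the median probe and 11 were higher, with a median of 0.22, none of them passing, and summed intensities of 55768 to 75477 in Hdac3 CKO and 42893 to 73068 in wild type cultures. Their mean differed by 0.59 in run 2, 0.27 in run 5 and 0.011 to 0.11 in the other runs. Of 10 osteoblast markers 2 were higher, with a median of -0.16, and their mean differed by -0.55 in run 2, where Fads2, Scd2 and Elovl6 were lowest relative to wild type. In bulk cultures more cells of a type and more RNA per cell cannot be told apart.

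With the mean of the adipocyte markers as a covariate beside the runs, the Scd1 difference was 0.079 (SE 0.11) and did not pass. Without the covariate it was 0.70. The difference of Scd2 was 0.40 (0.010 without the covariate), that of Fads2 0.048 (-0.31 without) and that of Elovl6 -0.050 (-0.26 without). The limma adjusted p in the fit with this covariate was 0.9997 for Scd1 and equally for each other member gene and Nr1h3. Not passing there is therefore not particular to Scd1, and the covariate itself differed by genotype (by 0.90 in run 2). With this covariate Scd2 thus had the larger difference of the 2 Scd genes, a reversal of their order that was not tested. With the mean of the macrophage markers in its place the values were 0.42 for Scd1, which did not pass, 0.35 for Scd2, -0.080 for Fads2 and -0.20 for Elovl6. The Nr1h3 difference, 0.43 without a covariate, was 0.37 with the adipocyte covariate and 0.42 with the macrophage one. With either covariate it did not pass (limma adjusted p = 0.9997 and 0.422). The part of fat cells and macrophages in the Scd1 result was not tested.

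**Figure D5:**
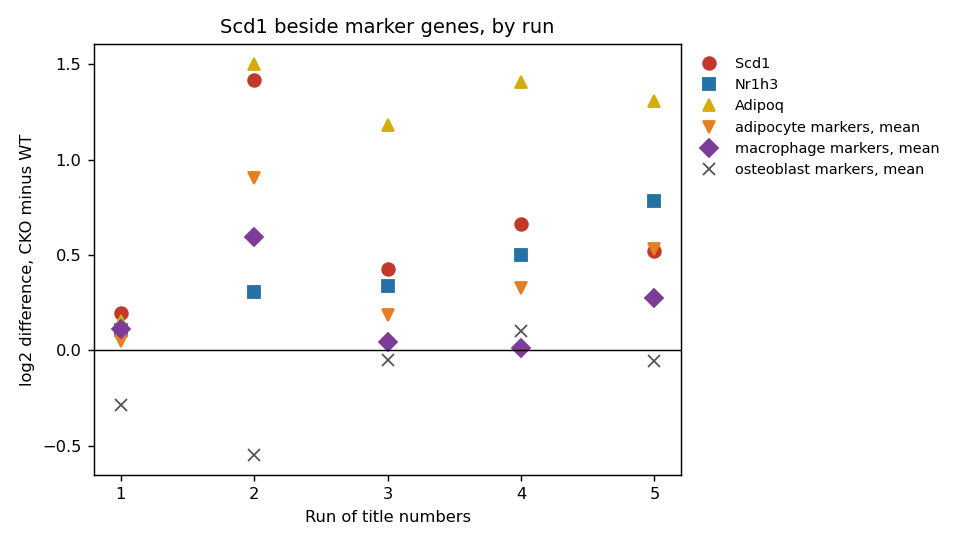
Log2 difference (Hdac3 CKO minus wild type, y axis) of Scd1, Nr1h3, Adipoq and the mean of the adipocyte, macrophage and osteoblast markers in each run (x axis). Scd1 and the adipocyte mean are highest in run 2, at 1.42 and 0.90, where the macrophage mean is also highest and the osteoblast mean is lowest, at -0.55, whereas Nr1h3 is highest in run 5, at 0.78.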

How the data were processed

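RNA for 8 Hdac3 CKO and 8 wild type arrays was biotin labelled by the standard Illumina protocol, per the labels' protocols. It was hybridized to a mouse expression array. The values deposited by the authors are probe intensities on a linear scale. They share 1 distribution over the 16 arrays (highest 37892 on each, median 97.1 to 97.2), as quantile normalization gives. Software, background treatment and filters are not stated in the labels, and the lowest intensity is 53.1, so dim probes have compressed fold changes. Intensities were floored at 16 and log2 transformed, with no further normalization. Of 25697 probes 23978 had 1 symbol in the platform annotation of 2016, updated by Entrez identifier against RefSeq, GRCm38.p6 (23962 matched). The brightest probe over all arrays stood for a gene. No probe was set against another in level.

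Genotypes were compared (Hdac3 CKO minus wild type) over all probes in limma 3.58.1 (R 4.3.3, two-sided, Benjamini-Hochberg over all probes, threshold 0.05), without a block and with the 5 runs of title numbers as a fixed block. Exact permutation tests of single values used all 12870 arrangements of the arrays or the 864 within runs. The code was tested on simulated data. Alternatives were another background, cyclic loess, a filter on dim probes, runs as a random block, 5 pairs of run means, the rank sum test, arrays and runs left out, marker levels as covariates and the mean of a gene's probes. Named were all members, pathway genes that passed, the 2 per role with the smallest p, and the 5 genes most like Scd1. Scd3, Scd4, Srebf2, Insig1 and Mlxipl are named beside them for their role, after their values were seen. The members and lists were chosen with earlier results of these data known. The number of arrays limits the precision.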

Additional observations from a re-analysis of the deposited data

How the results depend on the processing

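The Scd1 difference kept its sign under every alternative run. With the runs as a fixed block it kept its call with another background (0.72), cyclic loess (0.69) and the filter on dim probes, and 1 member probe stayed called in each. The call was lost, leaving 0 member probes, without run 2 (0.46), run 3 (0.79) or run 5 (0.76), with runs as a random block (0.70, adjusted p = 0.660), with 5 pairs (0.64, adjusted p = 0.300), and with the macrophage (0.42) or adipocyte level (0.079) as a covariate. Leaving out single arrays gave 0.61 to 0.77, and 0 or 1 member probe called. Without a block no setting called a member, where 0% of all probes passed in the main fit and 0 in the rank sum test. The share of all probes called under each other alternative is not given here. These counts therefore describe the members only and do not set them apart from other probes. Scd1 minus Scd2 over all arrangements ran from 0.49 to 0.81 without single arrays, and lost its call without run 2 (0.25), 3 (0.80), 4 (0.77) or 5 (0.81). Without run 2, Scd1 minus Elovl5 (0.48), Fads1 (0.35) and Fads2 (0.60) passed over all arrangements, as did Fads2 with another background (1.13). Within runs all 5 comparisons passed under each alternative run.

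Signs turned only for differences that did not pass. Without a block the single-array ranges were -0.038 to 0.038 (Fasn), -0.0057 to 0.11 (Acly), -0.14 to 0.24 (Scd2), -0.044 to 0.024 (Elovl5), -0.051 to 0.046 (Srebf1) and -0.076 to 0.097 (Fads1). With the block they were -0.024 to 0.044 (Fasn), -0.064 to 0.080 (Scd2), -0.028 to 0.012 (Elovl5), -0.015 to 0.038 (Srebf1) and -0.033 to 0.047 (Fads1). Without runs, in both fits, Scd2 was -0.020 (run 1), -0.0078 (run 3), -0.064 (run 4) and -0.052 (run 5), Fasn -0.051 (run 2), -0.0047 (run 4) and -0.0065 (run 5), and Fads1 -0.012 (run 4) and -0.042 (run 5). Acly was -0.024 (run 5), Srebf1 -0.043 (run 2) and -0.042 (run 5), and Elovl5 0.0038 (run 1) and 0.027 (run 3). With the macrophage covariate Fasn was -0.091 and Srebf1 -0.12. With the adipocyte one Fasn was -0.16, Acaca -0.057, Srebf1 -0.19 and Fads2 0.048, and with 5 pairs Srebf1 was -0.0062. The Nr1h3 call was also lost with another background (0.53, adjusted p = 0.0545) and with the mean of its probes (0.27, adjusted p = 0.0634). The cause of these turns was not tested. Signal over background limits Fasn and the dimmer Srebf1 probe.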

Other observations

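The enzymes that attach coenzyme A to fatty acids and the separate mitochondrial fatty acid synthesis route held no passing gene. Of 4 measured acyl-CoA synthetase genes 2 were higher and 2 lower in Hdac3 CKO cultures. Acsl3, which acts at growing lipid droplets, averaged log2 8.53 ± 0.46 in Hdac3 CKO and 8.74 ± 0.60 in wild type cultures (SD, n = 8 each), a difference of -0.20 (SE 0.079, limma adjusted p = 0.335 with the runs as a block), and was higher in 1 of 5 runs. Acsl5 had a difference of 0.11 (adjusted p = 0.533). Of 3 measured mitochondrial genes, Mcat, which loads malonyl groups onto the mitochondrial acyl carrier protein, averaged 7.17 ± 0.047 in Hdac3 CKO and 7.30 ± 0.11 in wild type cultures (SD, n = 8 each). Its difference was -0.14 (SE 0.047, limma adjusted p = 0.252 with the block), with 0 of 5 runs higher in Hdac3 CKO, where 5.19% of all probes were lower in all 5 runs. Ndufab1, the acyl carrier protein itself, had a difference of 0.065 (adjusted p = 0.629).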
